A study of Mus musculus with 8 samples.

Results

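The genes described here encode the proteins of the mitochondrial ribosome and are recognised by name: every probe on the array, other than the control probes, whose accession belongs to a gene called Mrpl or Mrps followed by a number. The rule found 100 probes for 78 genes, 49 of them Mrpl and 29 Mrps, among 20972 named genes on the array. Of the probes, 99 passed the filter on low signal, and 77 genes were tested among 28491 features (14930 named genes). Mrpl21 had a single probe, which lay between −6.94 and −4.32 log2 and was well above background on 1 of the 8 arrays, so it was left out. The other 77 genes were well above background on all 8 arrays. They were therefore not kept through 1 group alone.

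The mitochondrial ribosome translates the few messages that the mitochondrial genome encodes, all of them for subunits of the respiratory chain and the ATP synthase. Its proteins are encoded in the nucleus, made in the cytosol and imported, and are assembled on mitochondrially encoded rRNA into a large subunit, which joins amino acids, and a small subunit, which reads the message. Many of them descend from proteins of bacterial ribosomes, and others were added in the course of evolution. Some names mislead: Mrps30 and Mrps18a sit in the large subunit, and Mrps36 is a component of the 2-oxoglutarate dehydrogenase complex.

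Mouse embryonic stem cells, pluripotent cells of the early embryo, were all grown in medium with LIF, which keeps them self-renewing, plus PD173074 at 250 nM, which blocks the FGF receptors upstream of Erk. Untreated cells (0 h) were sampled in 3 cultures. All other cultures received 5 µM actinomycin D, a blocker of transcription, and after 30 min either ethanol, the vehicle (4 h, 2 arrays), or 250 nM 4-hydroxytamoxifen (4OHT, 4 h, 3 arrays). The labels give no genotype or line for the cells and do not say what 4OHT acts on, and the title of the study concerns mRNA degradation under Erk. The titles of the untreated samples also carry an abbreviation of actinomycin D, whereas their treatment label and description say untreated, and each comparison with untreated rests on that. Vehicle against untreated thus asks which messages were lost while transcription was blocked, and 4OHT against vehicle asks whether 4OHT altered that. No group was kept for 4 h, or given ethanol, without actinomycin D. In comparisons with untreated, actinomycin D, the solvent and the time in culture therefore cannot be told apart.

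Each array measured 1 RNA in a single colour, from 100 ng of total RNA. Values are log2 signal minus the 75th percentile of the array, so a positive difference says that a message gained on the signals at that percentile, not that more of it was made. The 75th percentile itself was at signals of 333 to 457 on the untreated arrays, 166 to 205 with vehicle and 180 to 209 with 4OHT. All 8 pluripotency markers were detected, with a summed linear signal of 777 to 910 times the 75th percentile untreated, 1224 to 1244 with vehicle and 1050 to 1186 with 4OHT. The markers went both ways: with vehicle 4 were higher and 2 lower, Sox2 from 4.38 ± 0.10 (SD, n = 3) to 0.84 ± 0.22 (SD, n = 2) and Zfp42 from 7.23 ± 0.19 to 6.17 ± 0.24, while Dppa5a, at 8.20 ± 0.14 and 9.36 ± 0.04, gave the largest part of the sum. Of 8 feeder fibroblast markers, 4 passed the filter (sums of 2.52 to 3.76, 3.37 to 3.86 and 4.04 to 4.47) and Col3a1, Postn, Lum and Dcn did not. The 6 primitive endoderm markers summed to 0.652 to 0.823, 0.336 to 0.391 and 0.281 to 0.409, with 4 lower and Dab2 higher with vehicle. All 6 were well above background on each untreated array, and 2 on each other array. The 4 lower ones, Gata6, Sox17, Sox7 and Pdgfra, passed the filter through the untreated group alone, which favours a fall. The part of these markers in the results was not tested. RNA was taken from whole cultures, so fewer cells of a type and less RNA per cell cannot be told apart. Arrays of 1 group correlated at 0.987 to 0.994 across features, and arrays of different groups at 0.956 to 0.990. The untreated and vehicle arrays lay on 1 slide, in different rows, and all 4OHT arrays on another. Slide and 4OHT, and row and actinomycin D, cannot be told apart.

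On this scale the mitochondrial ribosomal protein genes had a higher median level after actinomycin D. Their median level was 4.52, 4.42 and 4.49 on the untreated arrays, 4.82 and 4.89 with vehicle, and 4.84, 4.82 and 4.89 with 4OHT. The vehicle and 4OHT arrays overlapped, and both lay above all untreated arrays. When the arrays were instead scaled to spike-in control probes, whose addition the labels do not describe, the order turned. The medians were then 1.01, 0.85 and 1.10 untreated, −0.00 and 0.18 with vehicle, and 0.05, −0.36 and −0.37 with 4OHT. The direction of the median depended on the reference chosen.

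**Figure D1:**
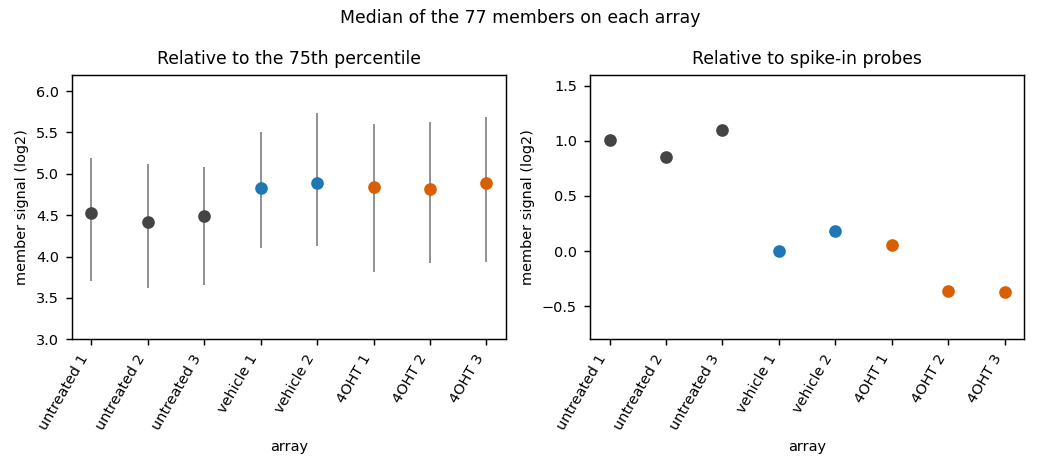
Median level of the 77 tested genes on each array in log2 units, relative to the array's 75th percentile (left, lines span the middle 50% of the genes) and to spike-in control probes (right). The 5 arrays after actinomycin D lie above the untreated arrays on the left (4.82 to 4.89 against 4.42 to 4.52) and below them on the right.

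In vehicle against untreated, 45 of the 77 genes were higher (58.4%), 5 were lower (6.49%) and 27 were not called. Over all features tested, 41.5% were higher and 15.9% lower in the same limma fit. A call is an adjusted p under 0.05 (limma, Benjamini-Hochberg over all features). The median difference of the genes was 0.47 (middle 50% from 0.04 to 0.82, range −0.81 to 1.22), beside 0.40 over all features. Of the 14930 named genes tested, 6175 were higher and 2851 lower (median 0.35). Unlike the 77 genes, all features include some kept through the untreated group alone, which favours a fall. The arrays of the groups did not overlap for any of the 50 called genes among the 77. This adds little to the calls, since a call on so few arrays mostly needs separated groups. The share over all features was not counted. Where a vehicle array is left out here and below, the group has 1 array, which is assumed to vary like the other groups. Leaving out single arrays kept 42 of the 50 calls each time, 38 of the 45 higher and 4 of the 5 lower. Those lost were Mrpl15, Mrpl20, Mrpl22, Mrpl30, Mrpl37, Mrpl40, Mrpl58 and Mrps26, all but Mrpl37 when vehicle replicate 2 was left out. Mrpl57 read 4.84 and 5.92 on the vehicle arrays, the widest spread of any member there (SD 0.76, n = 2). Its difference was not called (−0.27 ± 0.28), but was without vehicle replicate 2, with that 1-array assumption (adjusted p = 0.0055 by limma), as was that of Mrpl3 (adjusted p = 0.021).

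The split between directions moved with the scaling. Scaled to the spike-in probes, none was higher and 54 were lower (median −0.81; all features −0.88, with 65% of them lower). With no scaling the counts were 0 higher and 39 lower (median −0.63, all features −0.70). Quantile normalization gave 15 higher and 23 lower (median −0.07, all features 0.21), and cyclic loess gave 4 and 31 (−0.17, all features 0.06). With normexp background correction they were 35 and 12 (0.22, all features 0.54), and with scaling to the array median 24 and 1 (0.51, all features 0.44). The 75th percentile, spike-in, median and no scaling differ only by a single number per array, so they share the same gap between the medians. In that gap the genes' median lay above that of all features. With quantile, loess and normexp values it lay below. No difference from all features was tested. The counts by subunit below can be read against the 41.5% higher and 15.9% lower of all features.

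**Figure D2:**
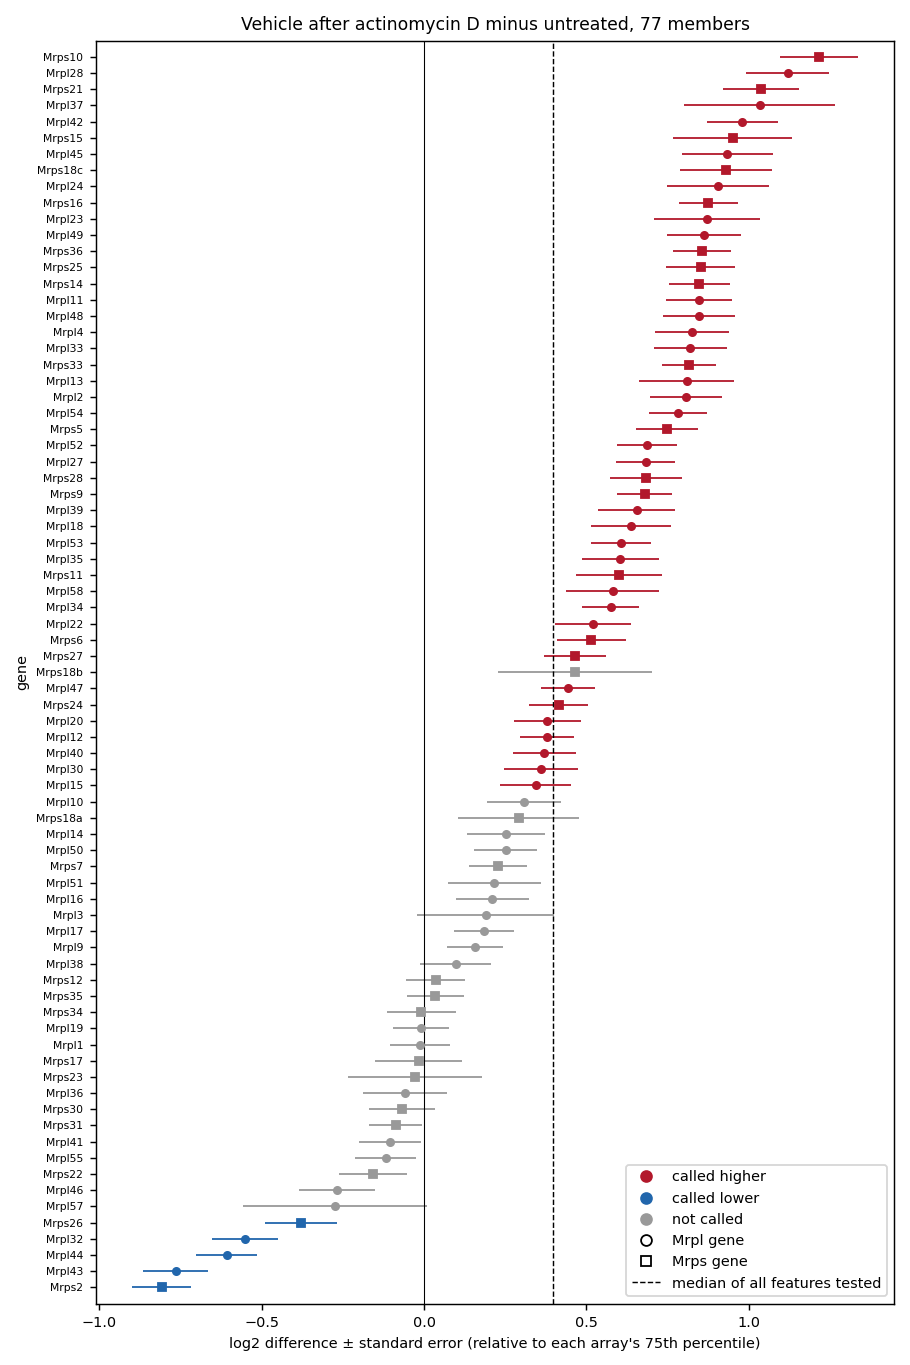
Log2 difference between vehicle and untreated arrays, with its standard error from the limma fit, for the 77 tested genes (circles Mrpl, squares Mrps). Red marks genes called higher (45), blue those called lower (5) and grey the rest; the dashed line is the median of all features tested, 0.40.

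In the large subunit, 27 tested proteins have a bacterial counterpart. Of these, 17 were higher and 1 was lower in vehicle against untreated (median 0.38, range −0.55 to 1.12), and 0 and 19 on the spike-in scale (median −0.90). Mrpl28, the counterpart of a bacterial large subunit protein, read 3.23, 3.24 and 3.32 untreated, 4.32 and 4.45 with vehicle, and 4.16, 4.47 and 4.48 with 4OHT. All arrays after actinomycin D lay above the untreated ones, by 1.12 ± 0.13 with vehicle (2.17-fold, adjusted p = 0.00045 by limma; −0.16 on the spike-in scale). Mrpl12, which forms the flexible stalk that recruits translation factors, read 5.81, 5.89 and 5.84 untreated and 6.24 and 6.21 with vehicle, and 6.02, 5.98 and 6.01 with 4OHT. Its vehicle arrays were higher by 0.38 ± 0.08 (adjusted p = 0.007 by limma), and this turned to −0.34 with quantile, −0.37 with loess and −0.90 with spike-in scaling.

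The protein that fell in this class was Mrpl32, whose precursor is matured by a protease of the mitochondrial inner membrane before it joins the ribosome. It read 3.80, 3.66 and 3.65 untreated, 3.23 and 3.07 with vehicle, and 3.12, 3.23 and 3.18 with 4OHT. The vehicle and 4OHT arrays overlapped, and all lay below the untreated arrays. The differences from untreated were −0.55 ± 0.10 with vehicle (adjusted p = 0.0032 by limma) and −0.52 ± 0.09 with 4OHT (adjusted p = 0.0021).

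Proteins added in mitochondria make up the remaining large subunit, with 22 tested. In vehicle against untreated 12 were higher and 2 lower (median 0.41, range −0.77 to 1.03), and 0 and 16 on the spike-in scale (median −0.87). Mrpl37 rose by 1.03 ± 0.23 (adjusted p = 0.0077 by limma), from 2.31, 2.91 and 2.42 untreated to 3.77 and 3.39 with vehicle, and read 3.64, 3.37 and 3.17 with 4OHT. Without vehicle replicate 1 its difference was 0.84 (adjusted p = 0.053). Mrpl42 rose by 0.98 ± 0.11 (adjusted p = 0.00043), from 3.64, 3.61 and 3.78 to 4.57 and 4.75, with 4.70, 4.77 and 4.87 under 4OHT. Mrpl58, a release factor relative that frees stalled peptides and became a ribosomal protein, rose by 0.58 ± 0.14 (adjusted p = 0.011), and by 0.46 without vehicle replicate 2 (adjusted p = 0.076). Mrps30, a large subunit protein despite its name, differed by −0.07 ± 0.10 (adjusted p = 0.60).

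The falling genes of this class were Mrpl43 and Mrpl44, and both were lower again with 4OHT than with vehicle. Mrpl43 read 5.67, 5.50 and 5.56 untreated, 4.77 and 4.86 with vehicle, and 4.03, 3.92 and 4.06 with 4OHT. Its 3 groups formed separate steps with no overlap. The first step was −0.77 ± 0.10 (1.70-fold lower, adjusted p = 0.00073 by limma). Mrpl44, which has the fold of a ribonuclease of the RNase III family, read 3.42, 3.31 and 3.27 untreated, 2.79 and 2.66 with vehicle, and 2.23, 2.26 and 2.26 with 4OHT. It fell by 0.61 ± 0.09 with vehicle (log2, adjusted p = 0.0015), also in separate steps.

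The small subunit proteins with a bacterial counterpart were the class with the highest median, 0.68 (range −0.81 to 1.22): of 16 tested, 12 were higher and 1 lower. Scaled to the spike-in probes, 0 were higher and 10 lower (median −0.60). Differences between the classes were not tested. Mrps10, a protein of the head of the small subunit, read 3.34, 3.18 and 3.33 untreated, 4.40 and 4.60 with vehicle, and 4.91, 5.14 and 5.15 with 4OHT. Its groups did not overlap, and the rise with vehicle was 1.22 ± 0.12 (2.32-fold, adjusted p = 0.00031 by limma; −0.06 on the spike-in scale). Mrps21 rose by 1.04 ± 0.12 (adjusted p = 0.00045), from 5.05, 4.73 and 4.88 to 5.94 and 5.91, with 5.87, 5.95 and 6.03 under 4OHT. Mrps15, which binds the small subunit rRNA directly, rose by 0.95 ± 0.18 (adjusted p = 0.004), from 3.90, 4.32 and 4.03 to 5.13 and 4.94, with 5.30, 4.86 and 4.92 under 4OHT. For both, the vehicle and 4OHT arrays overlapped and lay above all untreated arrays.

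Mrps2 was the exception in this class and the member with the deepest fall in vehicle against untreated. It read 3.70, 3.66 and 3.66 untreated, 2.95 and 2.78 with vehicle, and 2.54, 2.51 and 2.49 with 4OHT. The fall with vehicle was 0.81 ± 0.09 (log2, 1.75-fold, adjusted p = 0.00045 by limma). Its groups did not overlap, although 4OHT against vehicle was not called (−0.35 ± 0.09, adjusted p = 0.096).

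Of 9 tested small subunit proteins without a bacterial counterpart, 3 were higher (Mrps25, Mrps27 and Mrps33), 1 was lower and the median was −0.01 (range −0.38 to 0.85). On the spike-in scale 0 were higher and 7 lower (median −1.28). The lower one was Mrps26, with 5.64, 5.48 and 5.54 untreated, 5.14 and 5.22 with vehicle and 4.50, 4.66 and 4.74 with 4OHT. Its fall with vehicle, 0.38 ± 0.11 (adjusted p = 0.022 by limma), was called when untreated replicate 2 was left out but not without any other single array. Without the other arrays the adjusted p lay between 0.053 and 0.0997.

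The 3 relatives of bacterial protein S18 sit at different places: Mrps18c at the bacterial position in the small subunit, Mrps18b elsewhere in the small subunit and Mrps18a in the large one. Mrps18c was higher by 0.93 ± 0.14 (adjusted p = 0.0014 by limma), from 4.77, 4.60 and 4.82 untreated to 5.45 and 5.87 with vehicle, with 5.65, 5.71 and 5.73 under 4OHT. Mrps18b differed by 0.47 ± 0.24 (adjusted p = 0.13) and had the widest untreated spread of all members (6.47, 5.68 and 6.45; SD 0.45, n = 3). Mrps18a differed by 0.29 ± 0.19 (adjusted p = 0.22). Mrps36, the dehydrogenase component that shares the name, rose by 0.86 ± 0.09 (adjusted p = 0.00036), from 4.09, 4.10 and 4.06 to 4.92 and 4.96, with 5.01, 4.87 and 4.99 under 4OHT. It is not part of the ribosome and is counted here by its name.

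Of the signals by probe strength, Mrpl11, Mrpl33 and Mrpl51 gave the strongest and Mrpl1, Mrpl35 and Mrps27 the weakest, each on its own probe, so levels of different genes are not compared. Mrpl1 read 1.54 to 1.55 untreated, 1.51 to 1.55 with vehicle and 1.27 to 1.44 with 4OHT, where all 3 arrays lay below the others, and was not called in any comparison. Mrpl11, of the base of the stalk, rose by 0.85 ± 0.10 with vehicle (adjusted p = 0.00054 by limma).

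**Figure D3:**
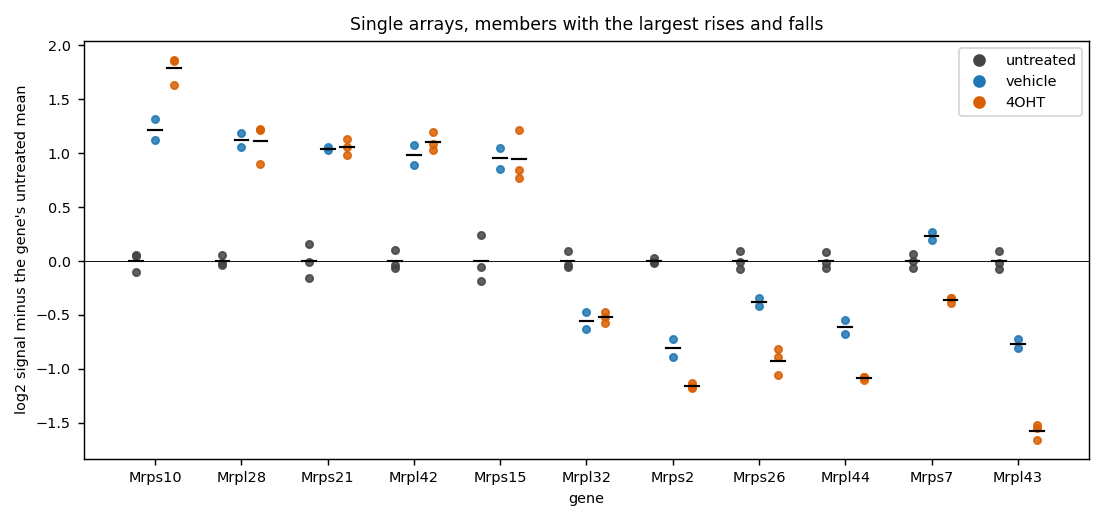
Single array values of 11 genes, as log2 signal minus the gene's own untreated mean; dots are arrays (untreated grey, vehicle blue, 4OHT orange) and bars are group means. Mrpl43, Mrpl44 and Mrps26 step down from untreated to vehicle to 4OHT, and Mrps10 steps up. Mrps7 lies above untreated with vehicle, without a call, and below it with 4OHT. Genes with a pair of kept probes are shown on the stronger probe. The weaker Mrps7 probe fell with vehicle (−0.76).

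Few of these messages were called between 4OHT and vehicle. In 4OHT against vehicle, none of the 77 genes was higher and 4 were lower (5.19%), beside 0.923% higher and 2.58% lower of all features tested. The median difference was −0.07 (range −0.81 to 0.57), beside −0.05 over all features. At the spike-in scale 3 were lower, where 4.14% of all features were (median −0.37, all features −0.36). All 4 calls were lost, with 0 lower, when only the groups compared were fitted, with median scaling, with no scaling, without the filter on dim probes and with a replicate block. With a trended and robust prior 10 were lower. The 4 were Mrpl43, Mrps7, Mrps26 and Mrpl44. The arrays of the groups did not overlap for any of them, which again adds little to the calls and was not counted over all features.

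Mrpl43 was lower by 0.81 ± 0.10 with 4OHT than with vehicle (log2, 1.75-fold, adjusted p = 0.013 by limma). The call was lost without vehicle replicate 1, vehicle replicate 2 or 4OHT replicate 2, with adjusted p between 0.038 and 0.061 over the 5 arrays left out in turn. Mrps7, which binds the small subunit rRNA and nucleates the head, read 4.99, 4.93 and 4.86 untreated, 5.19 and 5.12 with vehicle, and 4.58, 4.54 and 4.58 with 4OHT. With vehicle it lay above untreated without a call (0.23 ± 0.09, adjusted p = 0.062), and with 4OHT it lay below vehicle by 0.59 ± 0.09 (adjusted p = 0.022). Mrps26 was lower by 0.55 ± 0.11 (adjusted p = 0.049) and Mrpl44 by 0.48 ± 0.09 (adjusted p = 0.044). For Mrps7, Mrps26 and Mrpl44, leaving out any 1 of the 5 arrays of these groups ended the call, with adjusted p up to 0.20. No member was called without vehicle replicate 1, vehicle replicate 2 or 4OHT replicate 2, and 1 was called without 4OHT replicate 1 or 4OHT replicate 3.

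In the other direction, Mrps10 was the highest, 0.57 ± 0.12 above vehicle on non-overlapping arrays, and missed the threshold (adjusted p = 0.057 by limma). It was called with loess (adjusted p = 0.043), normexp (0.011), a filter over all 8 arrays (0.039) and a trended and robust prior (0.016). No member was called higher with spike-in, quantile, median or no scaling, with the deposited value table or with the mean of kept probes. Nor was any with only the groups compared, no filter on dim probes, a replicate block or any 4OHT array left out. Over the 5 arrays left out in turn, the difference of Mrps10 ranged from 0.47 to 0.66.

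**Figure D4:**
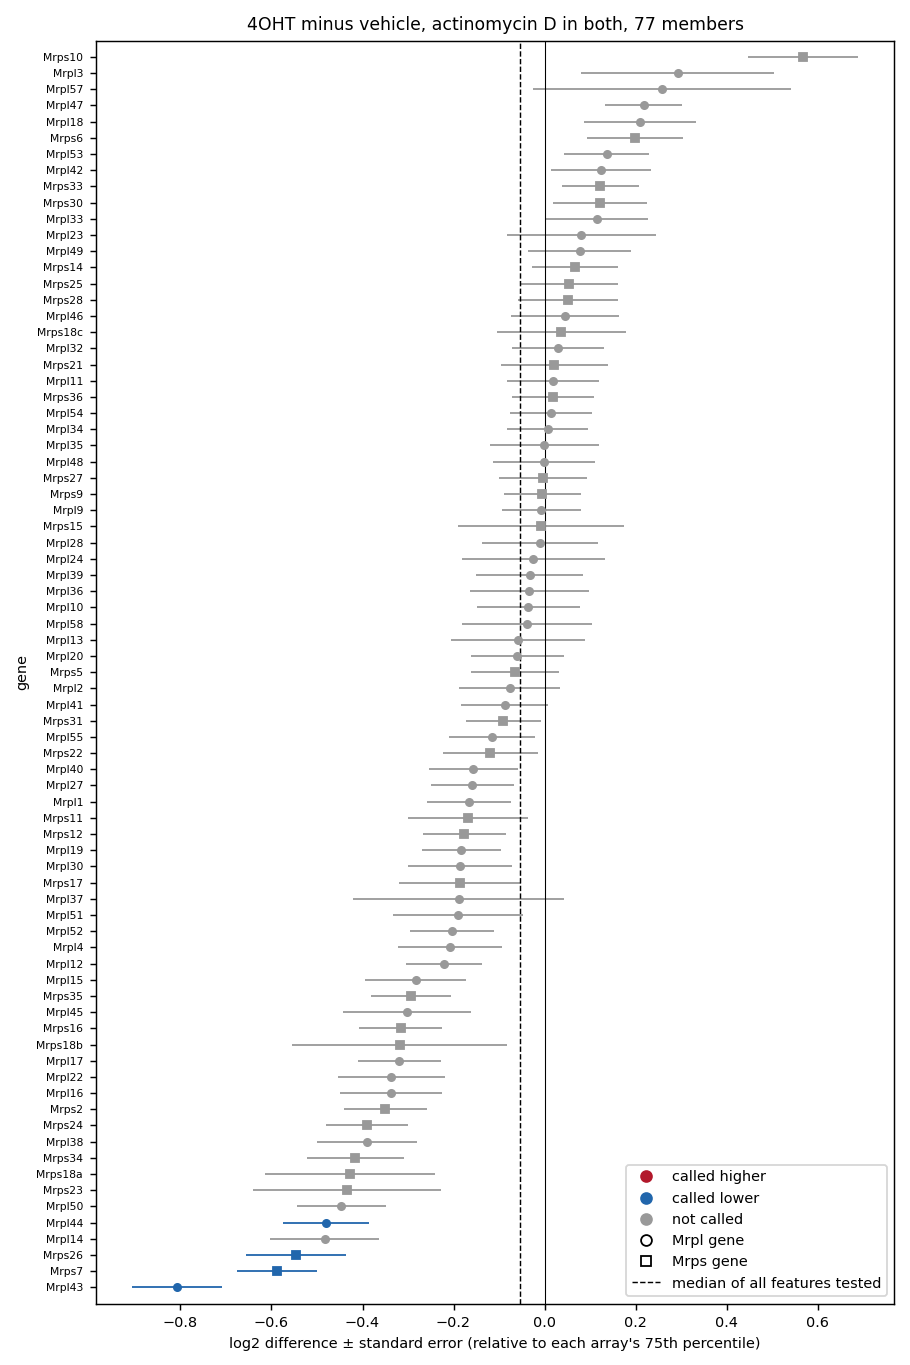
Log2 difference between 4OHT and vehicle arrays, with its standard error from the limma fit, for the 77 tested genes (circles Mrpl, squares Mrps). The 4 genes called lower are blue; Mrps10 lies highest at 0.57, and the dashed line at −0.05 is the median of all features tested.

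In 4OHT against untreated, 39 genes were higher and 11 lower, beside 41% higher and 18.7% lower over all features tested (median 0.43, all features 0.31; range −1.57 to 1.78). At the spike-in scale 76 were lower and none was higher, where 93.4% of all features were lower. Quantile normalization gave 18 higher and 35 lower, loess 10 and 36, normexp 37 and 22, and no scaling 1 and 46. This comparison shares its untreated arrays with the first one and its 4OHT arrays with the second. Of the 45 genes higher with vehicle, 39 were also called higher with 4OHT against untreated and 6 were not (Mrpl12, Mrpl15, Mrpl22, Mrpl30, Mrpl40 and Mrps24). All 5 genes lower with vehicle were called lower here, and 21 genes were called in no comparison on the probe that represents them.

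Mrps10 had the largest rise, 1.78 ± 0.11 (3.44-fold, adjusted p = 3.3e-05 by limma; 0.20 on the spike-in scale). It was followed by Mrpl28 at 1.11, Mrpl42 at 1.10, Mrps21 at 1.06, Mrps18c at 0.97 and Mrpl23 at 0.95. Mrpl43 had the deepest fall, −1.57 ± 0.09 (2.97-fold lower, adjusted p = 2.4e-05). Mrps2 followed at −1.16, Mrpl44 at −1.09, Mrps26 at −0.92, Mrpl32 at −0.52, Mrps34 at −0.42 and Mrps7 at −0.36. Smaller falls were called for Mrpl38 (−0.29), Mrps22 (−0.28), Mrps35 (−0.26) and Mrpl55 (−0.23). Each of these last 4 lost its call without untreated replicate 1, untreated replicate 3 or any 1 of the 4OHT arrays, and Mrpl55 also without untreated replicate 2. Among the higher genes, Mrpl20 and Mrps11 lost their calls without 4OHT replicate 2 or 4OHT replicate 3, and Mrpl20 also without untreated replicate 2 or untreated replicate 3.

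A pair of probes was kept for 22 of the genes, which shows how far a value rests on the probe. In vehicle against untreated the pairs lay a median of 0.22 apart, and 13 of 22 lay within 0.3. Both Mrpl43 probes fell alike, by 0.77 and 0.84 with vehicle and by a further 0.81 and 0.90 with 4OHT (log2, adjusted p from 0.00070 to 0.014 by limma over all kept probes). Both Mrps2 probes fell too, −0.81 and −0.72 with vehicle. The Mrps7 probes differed with vehicle, 0.23 and −0.76, but not in direction with 4OHT against vehicle, −0.59 and −0.72. The second Mrps26 probe read 0.00 ± 0.13 with vehicle and −0.41 ± 0.13 with 4OHT against vehicle (adjusted p = 0.15). The second Mrps36 probe read 0.18 ± 0.37, with 2.99 and 4.45 on the vehicle arrays. Other weaker probes were called where the stronger was not (limma over all kept probes). With vehicle they included Mrpl10 (0.53 ± 0.11, adjusted p = 0.0065) and Mrps18b (0.24 ± 0.08, adjusted p = 0.042). In 4OHT against vehicle they included Mrpl47, higher (0.46 ± 0.09, adjusted p = 0.046), and Mrpl50, lower (−0.54 ± 0.10, adjusted p = 0.040). In 4OHT against untreated they included Mrpl15 (0.51 ± 0.09, adjusted p = 0.0021).

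Mrps25 and Mrpl39 had probes called in opposite directions. For Mrps25 the stronger probe rose by 0.85 ± 0.11 and the weaker one fell by 1.05 ± 0.14 with vehicle. For Mrpl39 the stronger probe rose by 0.65 ± 0.12, and the weaker one fell by 2.19 ± 0.15. The weaker Mrpl39 probe was not well above background on any 4OHT array, which puts it at least 7.76-fold below untreated and at least 1.70-fold below vehicle. The weaker Mrpl41 probe was likewise at least 3.86-fold lower with 4OHT than untreated. Each such bound sets the brighter group against the higher of the dim probe's own signal and the lowest signal well above background on each array. A probe can read above that lowest signal without being well above background, so the bounds are approximate. The weaker Mrpl41 probe was kept through the untreated group alone, which favours a fall. The stronger Mrpl41 probe read −0.19 ± 0.08 with 4OHT against untreated and was not called (adjusted p = 0.090 by limma over all kept probes). The part of the transcript that each probe reads was not examined here.

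**Figure D5:**
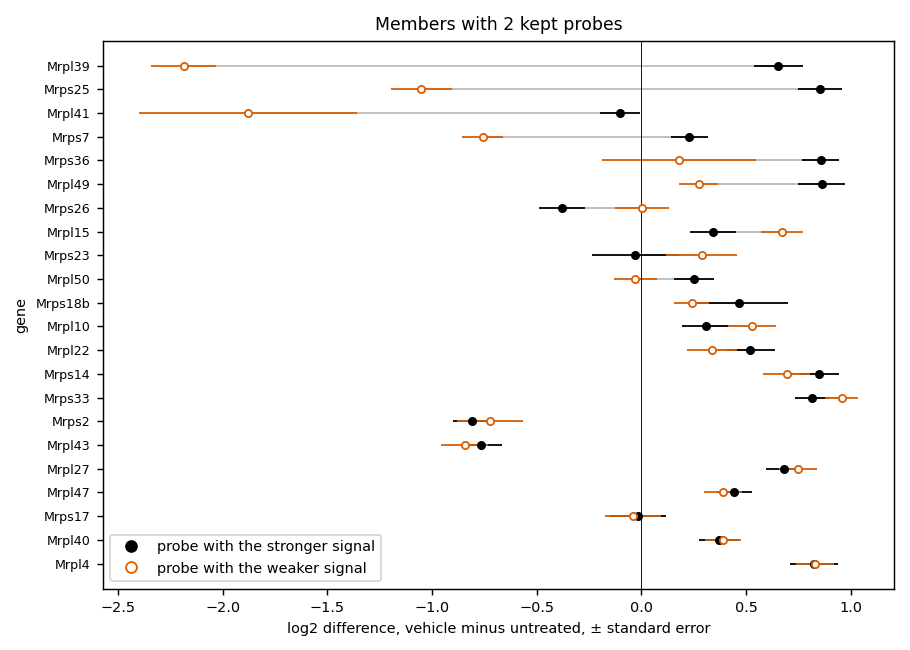
Vehicle minus untreated in log2 units, with standard errors, for the stronger (black) and weaker (orange) probe of the 22 genes with a pair of kept probes, ordered by the gap between them. The widest gaps are those of Mrpl39 and Mrps25, whose probes were called in opposite directions; Mrpl43 and Mrps2 fell on both.

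Many of these genes start close to another gene on the opposite strand. In RefSeq GRCm38.p6, 69 of the 78 genes have a promoter window of 250 bases before to 50 bases after the start. Of these, 26 (37.7%) have another gene starting on the opposite strand within 1000 bases, beside 12.2% of 27025 genes. In 24 such pairs both genes were tested, with Mrpl46 and Mrps11 counted from either side. In vehicle against untreated, 5 pairs were called higher on both sides, 1 lower on both and 3 in opposite directions (20.8, 4.17 and 12.5%). Of 1325 such pairs over all genes, counted in the same way, 22.6% were higher on both sides, 3.47% lower on both and 19.2% in opposite directions. The stretches between the starts of 5 pairs follow, on the plus strand, chosen after their values were seen because they show each kind of outcome. Capitals mark the motifs searched, CCGGAAG (bound by ETS factors) and GCATGCGC (the core bound by NRF1), on either strand.

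The single pair in which both fell was Mrpl43, read from the minus strand, and Twnk, which encodes the helicase of mitochondrial DNA. Mrpl43 differed by −0.77 ± 0.10 and Twnk by −0.44 ± 0.14 (adjusted p = 0.033 by limma). Their starts are 116 bases apart, and the stretch between them, chr19:45006443-45006557, holds the ETS motif at 2 places.
Twnk and Mrpl43: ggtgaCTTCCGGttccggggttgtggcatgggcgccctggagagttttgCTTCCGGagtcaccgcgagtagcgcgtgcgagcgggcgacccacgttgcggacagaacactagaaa

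Mrpl32 and Psma2, a subunit of the proteasome core, moved apart: −0.55 ± 0.10 and 1.03 ± 0.10 (adjusted p = 0.00033 by limma). Their starts are 205 bases apart at chr13:14613038-14613241, with 4 matches to the NRF1 core, 2 of them overlapping.
Psma2 and Mrpl32: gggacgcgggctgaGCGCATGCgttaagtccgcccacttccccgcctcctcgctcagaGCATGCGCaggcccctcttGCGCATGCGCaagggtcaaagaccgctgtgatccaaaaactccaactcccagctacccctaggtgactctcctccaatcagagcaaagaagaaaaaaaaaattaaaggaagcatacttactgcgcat

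Mrps18c and Helq, a DNA helicase, moved apart in the other order, 0.93 ± 0.14 and −0.76 ± 0.13 (adjusted p = 0.0022 by limma). Between their starts, chr5:100798601-100798758, lies 1 ETS motif.
Mrps18c and Helq: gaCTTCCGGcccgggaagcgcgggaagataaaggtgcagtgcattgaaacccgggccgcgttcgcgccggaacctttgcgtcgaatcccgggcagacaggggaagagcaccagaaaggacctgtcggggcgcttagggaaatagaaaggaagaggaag

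Mrpl49 and Fau, which encodes a cytosolic ribosomal protein joined to a ubiquitin-like protein, both rose, by 0.86 ± 0.11 and 0.98 ± 0.10 (adjusted p = 0.00076 and 0.00034 by limma). Neither motif is in chr19:6057756-6057946.
Fau and Mrpl49: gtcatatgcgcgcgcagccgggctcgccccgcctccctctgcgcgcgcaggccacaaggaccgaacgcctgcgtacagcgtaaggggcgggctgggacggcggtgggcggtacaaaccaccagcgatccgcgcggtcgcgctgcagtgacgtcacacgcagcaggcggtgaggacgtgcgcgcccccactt

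Mrps11 and Mrpl46 are both mitochondrial ribosomal proteins, of the small and the large subunit, with starts 42 bases apart. Mrps11 rose by 0.60 ± 0.13 (adjusted p = 0.007 by limma), and Mrpl46 read −0.27 ± 0.12 (adjusted p = 0.091). Neither motif is in chr7:78783090-78783130.
Mrps11 and Mrpl46: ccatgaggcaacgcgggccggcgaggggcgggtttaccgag

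Of these 5 pairs, 2 were thus called in opposite directions, 1 lower on both sides, 1 higher on both sides and 1 on a single side. Across the promoter windows, searched on both strands, CCGGAAG was present for 26 of 69 members (37.7%) and 9.93% of genes. The NRF1 core was present for 8 (11.6%, genes 3.05%), AAGATGGC, the core bound by YY1, for 12 (17.4%, genes 3.19%), and the E-box CACGTG for 5 (7.25%, genes 8.09%). An ETS match can share its last letters with a YY1 match. By call with vehicle, CCGGAAG was present for 14 of 40 higher, 2 of 5 lower and 9 of 23 uncalled members. A match is a description of the letters only, and the stretches come from RefSeq's gene starts, not from starts measured in these cells.

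The other genes of mitochondrial translation were read from the same fit, and their counts can be set beside 41.5% higher and 15.9% lower of all features. On the spike-in scale no gene of these lists was called higher with vehicle. Of 5 mitochondrial ribosome subunits that carry other names, 4 were higher with vehicle and none lower (median 0.72; spike-in scale 3 lower, median −0.55). Dap3, a GTP-binding protein of the small subunit, rose by 1.09 ± 0.11 and Aurkaip1, another small subunit protein, by 0.96 ± 0.10 (adjusted p = 0.00033 and 0.00034 by limma). None of the 5 was called in 4OHT against vehicle.

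Of 14 translation factors 13 were tested, 4 higher and 5 lower with vehicle (median −0.04; spike-in scale 11 lower, median −1.32). Gfm1, the elongation factor that moves the ribosome along, rose by 0.77 ± 0.10 (adjusted p = 0.00070 by limma), and Gfm2, which splits ribosomes for reuse, by 0.95 ± 0.15 (adjusted p = 0.0018). Scaled to the spike-in probes, both were below 0, at −0.51 and −0.33. Mtif3, an initiation factor, fell by 1.80 ± 0.12 (adjusted p = 9.0e-05). Mtrf1l, a release factor, fell by 1.58 ± 0.13 (adjusted p = 0.00018), and was lower again by 0.81 ± 0.13 with 4OHT than with vehicle (adjusted p = 0.025).

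Of 24 names listed for synthetase and amidotransferase genes, which charge mitochondrial tRNAs, 21 were tested, 11 higher and 5 lower with vehicle. Their median was 0.37, and on the spike-in scale 16 were lower (median −0.91). Gars1 and Kars1 on the list are other names of Gars and Kars. Kars and Gars, which serve the cytosol as well, rose by 1.08 ± 0.09 and 0.94 ± 0.13 (adjusted p = 0.00018 and 0.0010 by limma; −0.20 and −0.33 on the spike-in scale). Mars2 fell to a signal not well above background (adjusted p = 0.00014), at least 12.9-fold by the approximate bound used above. Pars2 fell by 2.68 ± 0.36 (adjusted p = 0.00084). Mars2 passed the filter through the untreated group alone, which favours a fall. Qrsl1, a subunit of the amidotransferase that makes glutaminyl-tRNA, was lower by 0.98 ± 0.13 with 4OHT than with vehicle (adjusted p = 0.016).

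Of 31 names listed for assembly and rRNA modification factors 28 were tested, 6 higher and 12 lower with vehicle. Their median was −0.14, and on the spike-in scale 25 were lower (median −1.42). Gtpbp5 and Wbscr16 on the list are other names of Mtg2 and Rcc1l. Eral1, which chaperones the small subunit rRNA, rose by 1.11 ± 0.10 (adjusted p = 0.00026 by limma), and Nsun4, an rRNA methyltransferase, by 0.91 ± 0.17 (adjusted p = 0.0035). Both were below 0 when scaled to the spike-in probes, at −0.17 and −0.36. Ddx28, a helicase of large subunit assembly, fell from 1.61, 1.64 and 1.63 to −1.61 and −1.61 (−3.23 ± 0.10, adjusted p = 4.5e-06). Mrm2, a methyltransferase of the large subunit rRNA, fell by 2.55 ± 0.17 (adjusted p = 7.6e-05). In 4OHT against vehicle 7 of the 28 were lower and none higher, beside 2.58% and 0.923% of all features, and 5 were lower on the spike-in scale. Among them were Mrm2, −1.09 ± 0.17 (adjusted p = 0.023), and Malsu1, which binds the large subunit during assembly, −0.85 ± 0.12 (adjusted p = 0.019).

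Of 21 transcription and RNA processing factors 7 were higher and 8 lower with vehicle (median −0.04; spike-in scale 17 lower, median −1.32). Slirp, which partners an mRNA stabiliser, rose by 0.98 ± 0.11 (adjusted p = 0.00044 by limma), and Hsd17b10, a component of mitochondrial RNase P, by 0.96 ± 0.13 (adjusted p = 0.0010), values of −0.30 and −0.32 on the spike-in scale. Trmt10c, another component of RNase P, fell by 4.37 ± 0.15 (adjusted p = 6.8e-06), and Tefm, the transcription elongation factor, by 3.07 ± 0.15 (adjusted p = 2.4e-05). None of the 21 was called in 4OHT against vehicle.

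Cytosolic ribosomal protein genes, the counterparts on the other ribosome of the cell, were nearly all called higher. Of 86 tested, 83 were higher with vehicle and none was lower (median 1.15, middle 50% from 1.09 to 1.23), beside 45 higher and 5 lower of 77 mitochondrial ones (median 0.47, middle 50% from 0.04 to 0.82). On the spike-in scale the medians were −0.13 and −0.81. Rpl36a rose by 1.40 ± 0.11 and Rps2 by 1.32 ± 0.14 (adjusted p = 0.00017 and 0.00038 by limma). None was called in 4OHT against vehicle, where the median was −0.17. The difference between the sets was not tested.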

How the data were processed

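RNA of 8 mouse embryonic stem cell cultures was measured on 8 Agilent arrays of 1 colour. Per the file headers, the authors deposited Agilent Feature Extraction output (version 11.0.1.1), and its background-subtracted linear intensity, called processed signal, was used; the label names Cy5, and the files hold the green channel. The value table the authors deposited holds the same linear intensity per probe and served as an alternative.

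Control spots (3671) and outlier-marked spots were left out, spots of a probe were averaged in log2, and the array's 75th percentile was subtracted. Of 55681 probes, 466 lacked a value on an array. Probes were kept (33008) where some group had all its arrays well above background, and a gene was represented by its kept probe with the strongest mean. Accessions were matched without version to RefSeq GRCm38.p6 for names and promoter stretches; the file headers name mm9, and no deposited coordinate was used. Differences were tested with limma 3.58.1 (R 4.3.3, lmFit and eBayes) in 1 fit of 3 groups over 8 arrays with 5 residual degrees of freedom, two-sided, Benjamini-Hochberg adjusted over 28491 features. Errors after ± are standard errors of that fit unless SD is named. The number of arrays limits the precision, and p-values measure the spread between cultures that the design calls biological replicates; the design states 3 of each, and the vehicle group has 2 arrays here. The fit was run on simulated data in which few features were changed by known steps, with no shift between groups. Such data cannot show which scaling suits these arrays. Spike-in scaling subtracts the mean of 8 of 10 spike-in control probes. The labels do not describe their addition.

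Members and lists were chosen with earlier results of these data known, so no list was tested as a set. Named were the 6 largest called rises and falls per comparison on non-overlapping arrays, calls against the main direction, the 3 strongest and 3 weakest signals, the S18 relatives with Mrps30, Mrpl12, Mrpl58 and Mrps36, genes whose probes disagree, and up to 2 called members per direction of each other list. Others, such as Mrps10 in 4OHT against vehicle, the pairs of neighbouring genes and the probe pairs shown, were chosen after their values were seen. Alternatives were other scalings, background correction, filters, probe averaging, eBayes priors, samples in the fit, a replicate block and each array left out.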

Additional observations from a re-analysis of the deposited data

How the results depend on the processing

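In both comparisons with untreated, the counts of called genes moved most with the scaling. Spike-in scaling gave 0 higher and 54 lower members in vehicle against untreated, and 0 and 76 in 4OHT against untreated (medians −0.81 and −1.15). With no scaling they were 0 and 39, and 1 and 46 (medians −0.63 and −0.62), with quantile normalization 15 and 23, and 18 and 35 (−0.070 and −0.093), and with cyclic loess 4 and 31, and 10 and 36 (−0.17 and −0.21). Median scaling gave 24 and 1 with vehicle and 4 lower with 4OHT against untreated, and normexp gave 12 and 22 lower. Without a filter on dim probes 7 were lower in 4OHT against untreated. In 4OHT against vehicle, 0 members were lower with median scaling, no scaling, no filter or only the groups compared, and 10 with a trended and robust prior. There 1 was higher with loess, normexp, that prior and a filter over all 8 arrays. Leaving out each array gave 40 to 46 higher and 4 to 5 lower members with vehicle, 37 to 40 and 7 to 10 in 4OHT against untreated, and 0 to 1 lower in 4OHT against vehicle. The cause of these shifts was not tested.

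On the spike-in scale all 77 members lay below 0 in vehicle against untreated, and all but 1 (Mrps10, 0.20) in 4OHT against untreated. Spike-in scaling and no scaling differ from the main scale by a single number per array, so every gene of a comparison shifts alike. Relative to the spike-in probes the 75th percentile lay at −3.49 untreated, −4.77 with vehicle and −5.07 with 4OHT (group means). The reversals listed for these 2 settings are thus not separate results. Members called higher on the main scale reversed, including with vehicle Mrpl11 (−0.43), Mrpl35 (−0.67), Mrps27 (−0.81), Mrpl12 (−0.90), Mrpl28 (−0.16), Mrpl37 (−0.24), Mrpl42 (−0.30), Mrpl58 (−0.70), Mrps10 (−0.061), Mrps15 (−0.33), Mrps18c (−0.35), Mrps21 (−0.24) and Mrps36 (−0.42). In 4OHT against untreated they included Mrpl58 (−1.04), Mrps36 (−0.71), Mrpl23 (−0.63), Mrpl28 (−0.47), Mrpl42 (−0.48), Mrps18c (−0.61) and Mrps21 (−0.52). With no scaling, among others, Mrpl12 (−0.72), Mrpl37 (−0.063), Mrpl42 (−0.12), Mrpl58 (−0.52), Mrps15 (−0.15), Mrps18c (−0.17), Mrps21 (−0.059) and Mrps36 (−0.24) reversed with vehicle, and Mrpl23 (−0.10) and Mrps18c (−0.087) in 4OHT against untreated. Quantile normalization reversed Mrpl12 (−0.34), and loess Mrpl12 (−0.37) and Mrpl58 (−0.071).

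Deviations of same-numbered arrays correlated at −0.19 to 0.36, and 3 of 7 pairs lay above 0.1. The highest were vehicle with 4OHT for replicate 1 (0.36) and for replicate 2 (0.22). Deviations within groups of 2 or 3 arrays mirror each other by construction, so this check cannot show whether replicate numbers pair the samples. With the number as a replicate block, 43 members were higher and 4 lower with vehicle, 38 and 7 in 4OHT against untreated, and 0 were lower in 4OHT against vehicle.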
